A study of Mus musculus with 60 samples.

Results

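The G1/S and DNA replication genes are 38 mouse genes that drive the step from G1 into S phase or work at the replication fork, chosen by symbol, with the brightest probe set where a gene had more than 1. All 38 had a probe set, among 19938 gene symbols tested. They were followed in R1 cells, an established mouse embryonic stem cell line, exposed for 6 h to a compound or to its solvent. The cells had been grown on feeder cells and freed of them before seeding, and were treated while attached and undifferentiated. There were 60 arrays in 20 groups of 3. The 10 compounds labelled teratogens were VPA (valproic acid, 1 mM), retinoic acid (0.024 mM), dexamethazone (the labels' spelling, 0.1 mM), penicillamine, dimethadione, fluconazole and topiramate (1 mM each), thalidomide (0.35 mM), azacytidine (0.23 µM in the titles but 23 µM in the characteristics) and methotrexate (0.028 µM). The 9 labelled non-teratogens were paracetamol, sulfasalazine, hydrochlorothiazide and chlorthalidone (1 mM each), loratadine (0.043 mM), glybenclamide (0.37 mM), clozapine (0.028 mM), metoclopramide (0.17 mM) and ondansetron (0.054 mM). The reference was DMSO at 0.1%, which every compound group also received. All groups came from this single cell line, and the labels do not say that the 3 arrays of a group were separate cultures, so the p-values measure the spread between these arrays, which may be technical.

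Before S phase the origin recognition complex, Cdc6 and Cdt1 load the MCM helicase onto origins, a step called licensing. Cyclins D and E with their kinases inactivate the retinoblastoma protein and release E2F factors, which activate many replication genes. The helicase is then switched on by Cdc45, the GINS complex and Mcm10, primase and DNA polymerase alpha lay down primers, and the clamp loader RFC places the clamp PCNA on the DNA. Embryonic stem cells have a short G1 and keep much of this machinery at high levels through the cycle.

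Promoter sequence was read for the members. Whether members moved together was not tested. The RefSeq promoter table (GRCm38.p6) held 29 of the 38 genes in 35 windows, each covering the 250 bases before a transcription start. The windows were searched on both strands for TTTCCCGC, TTTCGCGC, TTTGCCGC and TTTGGCGC, which are forms of the E2F site, and for CCAAT, the site of the factor NF-Y. An E2F word and a CCAAT word can share no more than an end letter, while E2F words can overlap each other. Shown here are the 4 genes in the table with the largest called changes, Gins3, Rfc4, Prim1 and Cdt1, in that order at chr8:95633309-95633558 (plus strand), chr16:23127731-23127980 (minus strand), chr10:128014965-128015214 (plus strand) and chr8:122567765-122568014 (plus strand), each 5′ to 3′ in the gene's direction. Capitals mark the searched words.
Gins3: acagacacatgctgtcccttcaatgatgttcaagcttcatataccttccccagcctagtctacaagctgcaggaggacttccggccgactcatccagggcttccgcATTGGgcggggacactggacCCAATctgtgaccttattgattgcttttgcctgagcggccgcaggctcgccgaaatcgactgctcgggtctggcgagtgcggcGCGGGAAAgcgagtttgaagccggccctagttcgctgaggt
Rfc4: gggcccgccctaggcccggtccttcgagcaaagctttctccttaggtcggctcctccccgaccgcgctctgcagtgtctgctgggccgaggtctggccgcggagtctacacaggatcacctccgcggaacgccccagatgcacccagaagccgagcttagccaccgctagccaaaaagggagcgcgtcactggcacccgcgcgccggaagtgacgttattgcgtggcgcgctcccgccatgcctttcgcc
Prim1: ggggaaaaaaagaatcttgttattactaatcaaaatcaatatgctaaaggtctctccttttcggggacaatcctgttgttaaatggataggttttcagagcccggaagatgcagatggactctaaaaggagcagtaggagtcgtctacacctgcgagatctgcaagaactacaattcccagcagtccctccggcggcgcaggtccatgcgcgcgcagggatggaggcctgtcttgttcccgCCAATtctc
Cdt1: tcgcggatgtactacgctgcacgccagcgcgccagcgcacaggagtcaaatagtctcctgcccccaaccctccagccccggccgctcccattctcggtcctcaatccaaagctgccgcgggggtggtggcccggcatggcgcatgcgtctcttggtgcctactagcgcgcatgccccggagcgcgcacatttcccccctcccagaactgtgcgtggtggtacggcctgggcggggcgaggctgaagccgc
The Gins3 window held the E2F word GCGGGAAA at 41 to 34 bases before the start and 2 CCAAT words. The Prim1 window held 1 CCAAT word, 9 to 5 bases before the start, and the Rfc4 and Cdt1 windows held neither word. Over the members' 35 windows, 8 (22.9%) held an E2F word, in Cdc6, Gins3, Mcm5, Mcm6, Mcm7, Orc1, Pola1 and Rfc3, compared with 611 of all 32851 windows in the table (1.86%). CCAAT stood in 22 of the 35 (62.9%) and in 11120 of all windows (33.8%). Of the windows of genes that rose with VPA, 2 of 7 held an E2F word and 5 of 7 held CCAAT, and of the windows of genes that fell, 2 of 6 and 5 of 6 did. Matches were therefore found among genes that rose, genes that fell and genes that did not pass the test, in the last case in 4 (E2F) and 12 (CCAAT) of 22 windows. A match is a stretch of letters and not a measured binding site.

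The deposited values were log2 signals. The members' mean signals over all arrays lay between 8.30 and 13.03, all above 8.09, the median of the tested probe sets, but signals of different probe sets cannot be set against each other. The markers of embryonic stem cells lay above 8.09 on every array. Pou5f1, for example, had between 12.09 and 12.97. Of 9 measured fibroblast markers, which would come from feeder cells, Lum (4.46 in DMSO), Fap (5.40), Postn (7.03) and Dcn (7.25) lay below 8.09. Col3a1 (8.27), Pdgfrb (8.44), Thy1 (8.94), Col1a2 (9.62) and Col1a1 (10.09) lay above it. These levels do not measure how many feeder cells remained. The mean of these 9 markers ranged over 7.62 to 7.95 on the arrays of the compounds and over 7.69 to 7.77 on the DMSO arrays. The mean over the 38 members was 10.96, 10.89 and 10.97 on the 3 DMSO arrays, so DMSO replicate 2 was the lowest. Because arrays measure RNA of a mixed population, fewer cells in S phase and less RNA per cell cannot be told apart in any of the results.

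Of the 722 pairs of a member and a compound, 38 passed an adjusted p under 0.05 (limma, Benjamini-Hochberg over 21789 probe sets). Such a pair is called below. The gene was higher than in DMSO in 23 of them and lower in 15. VPA accounted for 15 of the 38: 9 genes rose and 6 fell. Paracetamol raised 5 and lowered 1, retinoic acid raised 3 and lowered 1, dexamethazone lowered 3, glybenclamide raised 3, loratadine raised 1 and lowered 2, hydrochlorothiazide lowered 2 and sulfasalazine raised 2. No member was called with the other 11 compounds. In all, 23 genes were called with at least 1 compound and 15 with none. The 19 comparisons share the same 3 DMSO arrays. Where arrays of a called pair are said not to overlap, the pair was chosen by the test, so this is no further support. The share of all probe sets without overlap was not counted. Of the 38 calls, 15 were kept in every alternative run: Ccnd1 and E2f2 with loratadine, Rrm2 with paracetamol and 12 of the 15 with VPA (not Mcm5, Mcm7 and Cdc45).

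These counts were read against the share of all probe sets called with the same compound. VPA called 39.5% of the members and 26.5% of all probe sets (15.5% up and 11% down). Paracetamol called 15.8% of the members and 8.76% of all probe sets (4.61% up and 4.15% down). Retinoic acid called 10.5% of the members and 9.82% of all (5.9% up and 3.92% down), which lie close together. Dexamethazone called 7.89% of the members and 6.25% of all (4.74% down), and glybenclamide called 7.89% and 9.54% (6.79% up). Loratadine, which called 19.2% of all probe sets (10.9% up and 8.26% down), called 7.89% of the members. Hydrochlorothiazide called 5.26% of the members and 2.17% of all (1.87% down), and sulfasalazine called 5.26% and 8.9% (5.4% up). No test of the list against other genes was made. All members had mean signals above 8.09, the median of the tested probe sets, so the background was not matched for signal. With dim probe sets left out, fewer were tested, yet with paracetamol 2056 were called where 1909 had been. The paracetamol background share was thus higher in that run, where 8 members were called. With retinoic acid 4 members and 1872 probe sets were called in that run, against 4 and 2140. Calls among equally bright genes were not compared.

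**Figure D1:**
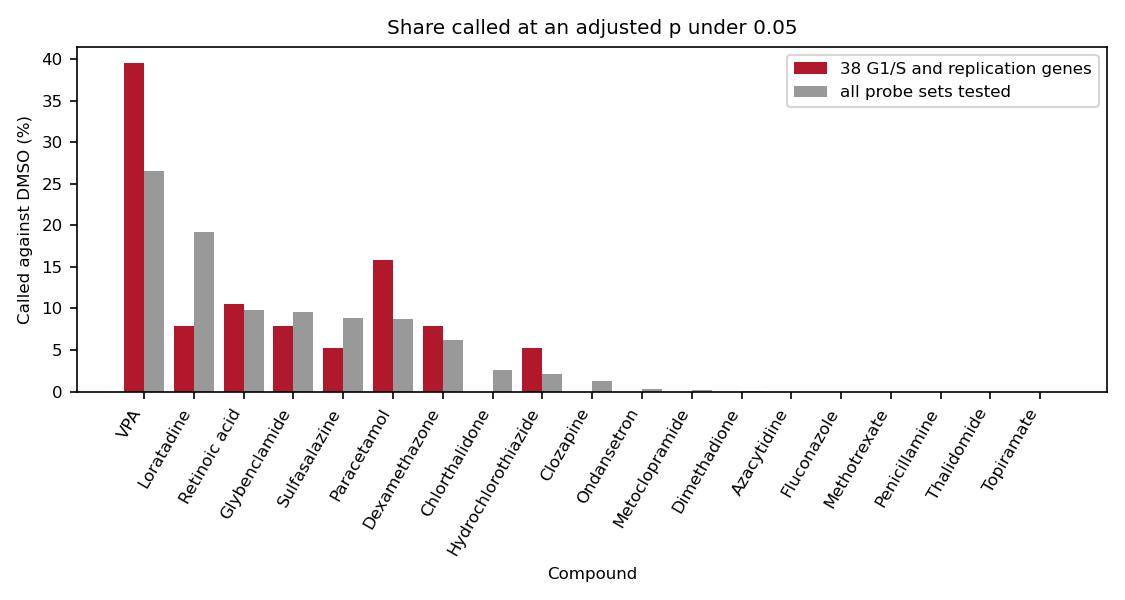
Percent of the 38 members (red bars) and of all 21789 tested probe sets (grey bars) called against DMSO with each of the 19 compounds, which are ordered by the number of probe sets called. VPA has the tallest bars (39.5% and 26.5%), and with loratadine the members' bar (7.89%) is below the grey bar (19.2%).

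**Figure D2:**
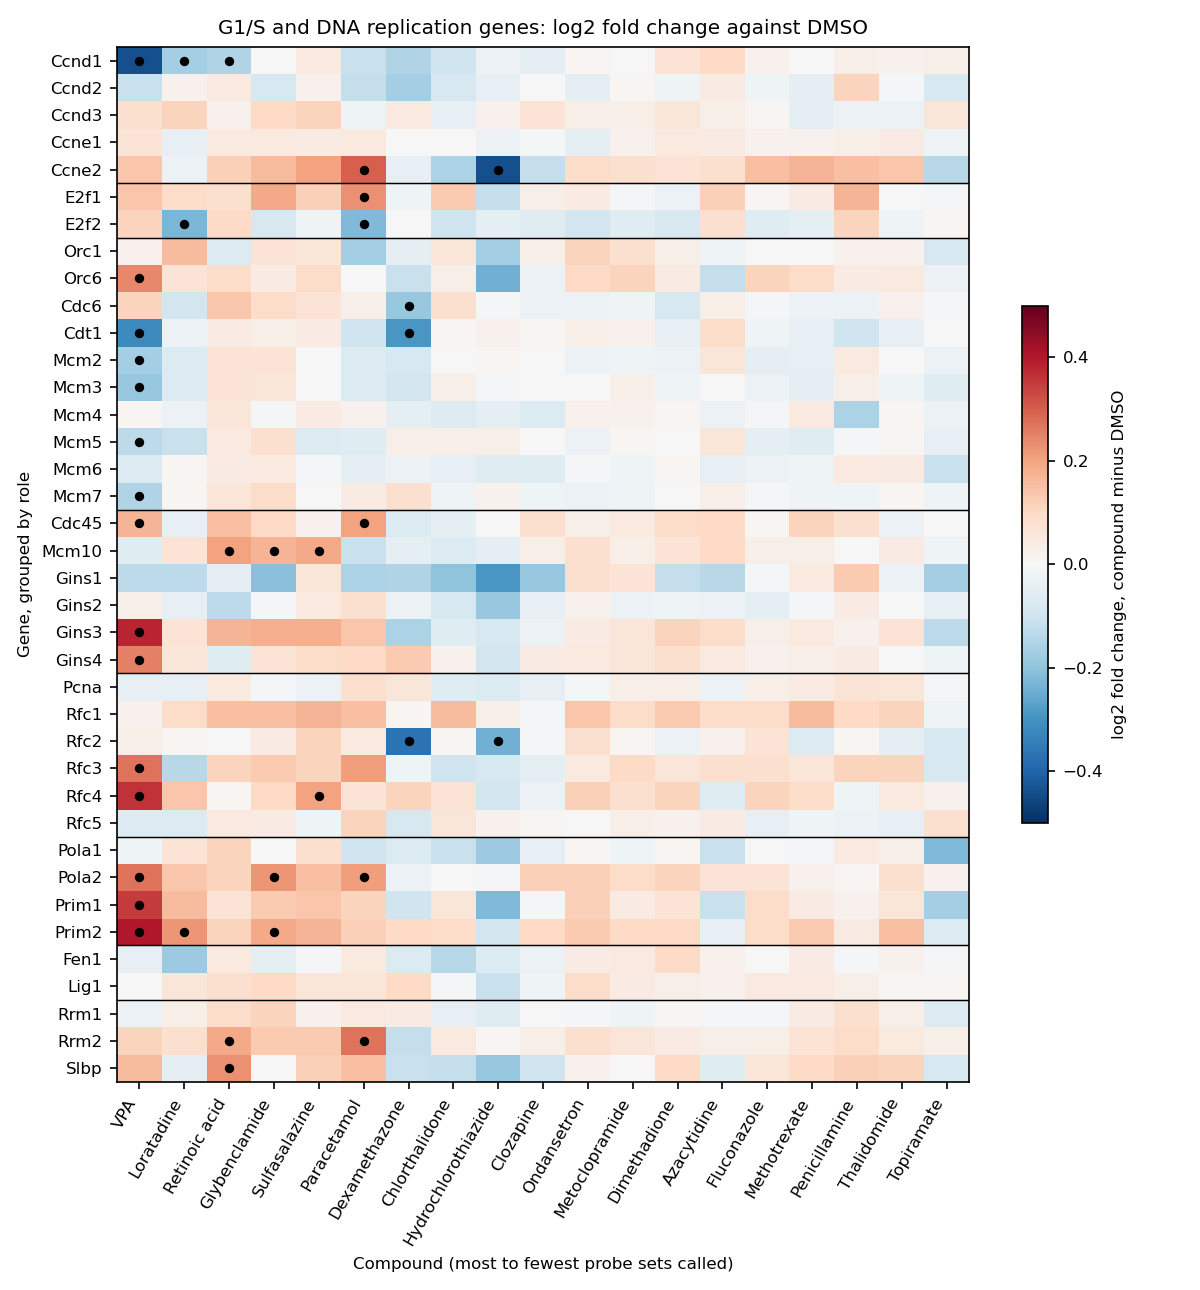
Log2 fold change of each member (rows, grouped by role) with each compound (columns), compound minus DMSO, on a colour scale from -0.5 (blue) to 0.5 (red). Black dots mark the 38 called pairs. In the VPA column the dots on blue are those of Ccnd1, Cdt1, Mcm2, Mcm3, Mcm5 and Mcm7, and the dots on red those of Orc6, Cdc45, Gins3, Gins4, Rfc3, Rfc4, Pola2, Prim1 and Prim2.

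VPA, used against epilepsy, is also an inhibitor of histone deacetylases. Among the 38 members its falls lay in licensing genes and Ccnd1, and its rises, apart from Orc6, in genes of later steps. This split was not tested. In the list of other replication genes below, genes that act at or behind the fork both rose and fell. Of all probe sets 15.5% rose and 11% fell with VPA. The counts that follow include Mcm5, Mcm7 and Cdc45, whose calls were not kept in every alternative run. Of the 10 licensing genes, 5 fell (Cdt1, Mcm3, Mcm2, Mcm7 and Mcm5) and 1 rose (Orc6). Of the 6 helicase activation genes 3 rose (Gins3, Gins4 and Cdc45), of the 4 genes of polymerase alpha and primase 3 rose (Prim2, Prim1 and Pola2), and of the 6 clamp and clamp loader genes 2 rose (Rfc4 and Rfc3). None of these last 3 groups held a gene that fell. Cyclin D1 (Ccnd1) fell by 26.3% and Prim2 was 32.1% higher, the largest changes in each direction. The median log2 fold change was -0.10 for licensing genes, 0.10 for helicase activation, 0.03 for the clamp and its loader and 0.31 for polymerase alpha and primase, against 0.03 for all 38 members and -0.01 for all probe sets. The median absolute change was 0.12 for the members and 0.103 for all probe sets.

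**Figure D3:**
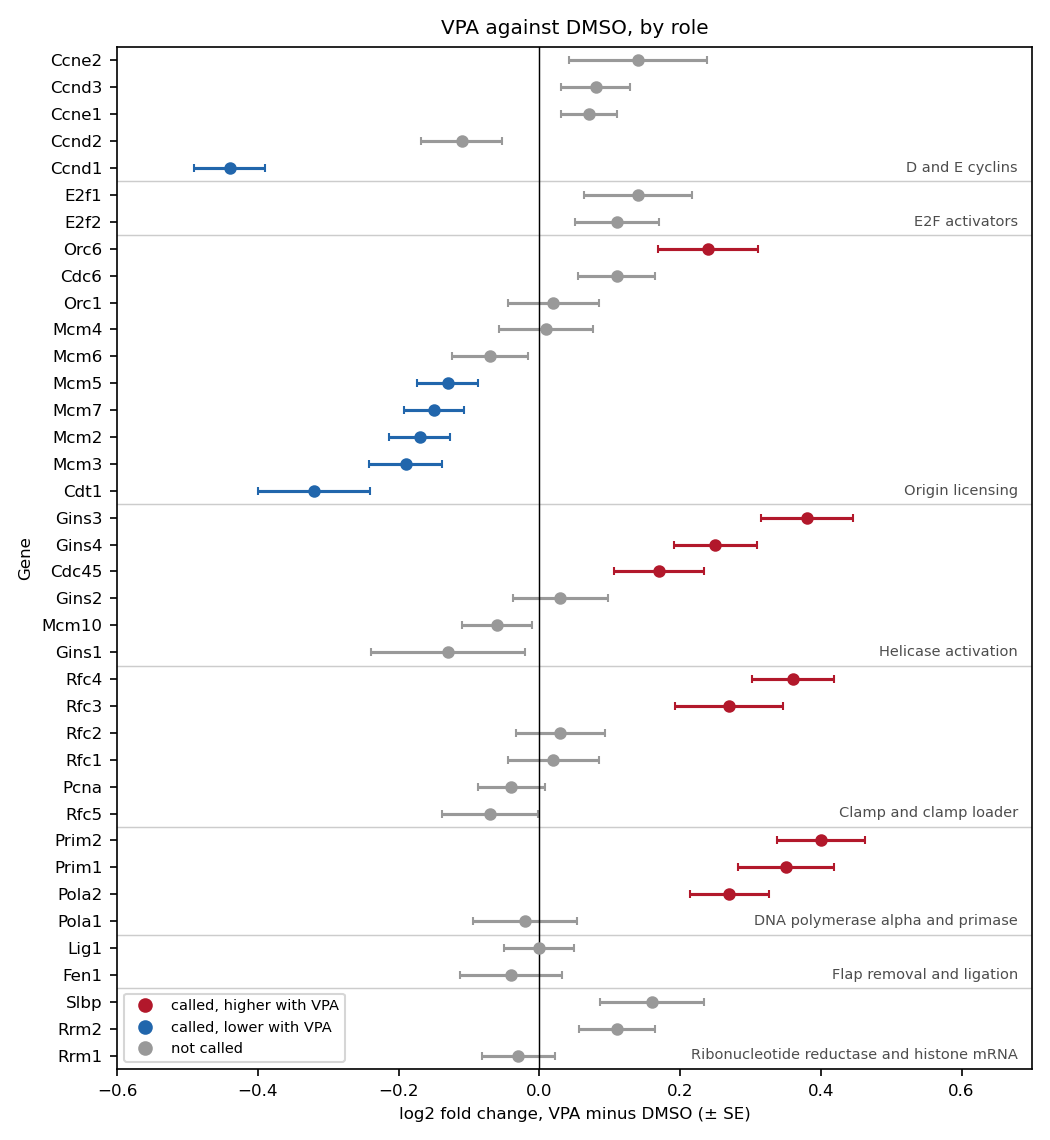
Log2 fold change with VPA, VPA minus DMSO, for the 38 members grouped by role. Points are estimates over 3 and 3 arrays, bars are ± 1 SE, and colour marks genes called higher (red), lower (blue) or not called (grey). The primase and polymerase alpha genes other than Pola1 lie between 0.27 and 0.40, and the called MCM genes between -0.19 and -0.13.

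Other genes of the pathway were read from lists named beside the members. Of 30 other G1/S control genes, 8 rose and 5 fell with VPA (43.3% called, where 26.5% of all probe sets were called). Cdk6, a kinase partner of the D cyclins, fell by 0.75 ± 0.054 (log2 ± SE, adjusted p = 1.08e-15). Cdkn2c, an inhibitor of that kinase, rose by 0.63 ± 0.100, and Rb1, the retinoblastoma gene, by 0.51 ± 0.073. Mycn, a growth-promoting transcription factor, fell by 0.44 ± 0.047 and the activator E2f3 by 0.39 ± 0.075. Of 53 other replication genes, 6 rose and 11 fell (32.1% called). The largest changes were those of Chaf1b (0.52 ± 0.047) and Asf1b (0.39 ± 0.052), histone chaperones that assemble chromatin behind the fork, and of Chtf8 (-0.50 ± 0.059), Pole4 (-0.39 ± 0.050) and Timeless (-0.39 ± 0.063), which encode a subunit of an alternative clamp loader, a subunit of DNA polymerase epsilon and a fork protection protein. With VPA 6 of 10 embryonic stem cell markers also fell and none rose, with a list mean of 11.81 to 11.84 on VPA arrays against 12.06 to 12.11 on DMSO arrays. The part of this shift in the members' changes was not tested. Of the 9 fibroblast markers 1 rose (Thy1) and 1 fell (Col1a2), with a list mean of 7.67 to 7.71 on VPA arrays against 7.69 to 7.77 on DMSO arrays.

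Among the D and E cyclins, Ccnd1 varied most over the compounds of all 38 members (moderated F test, adjusted p = 1.5e-10). Over the whole table this F test called 30 of the 38 members and 74.1% of probe sets. Ccnd1 had 11.58, 11.60 and 11.58 on the VPA arrays, against 12.03, 12.03 and 12.02 on the DMSO arrays. It had 11.83, 11.90 and 11.83 with loratadine and 11.88, 11.83 and 11.90 with retinoic acid, so all 9 of these arrays lay below all DMSO arrays. The log2 fold change was -0.44 ± 0.050 with VPA (adjusted p = 8.23e-10), -0.17 ± 0.050 with loratadine (adjusted p = 0.0113) and -0.15 ± 0.050 with retinoic acid (adjusted p = 0.0406). The fall with VPA was larger than that with retinoic acid by 0.29 and larger than that with loratadine by 0.27, each past the test (adjusted p = 7.38e-06 and 3.31e-05). The retinoic acid call was lost without any single array of the 6 except retinoic acid replicate 3, with the letter b of some sample titles as a covariate (adjusted p = 0.0809) and when only the 6 arrays entered the model (adjusted p = 0.22).

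Ccne2, an E cyclin, moved with 2 compounds in opposite directions. It had 9.27, 9.08 and 9.18 on the paracetamol arrays and 8.25, 8.30 and 8.74 on the hydrochlorothiazide arrays, against 9.00, 8.67 and 8.95 on the DMSO arrays. All paracetamol arrays lay above all DMSO arrays, whereas hydrochlorothiazide replicate 3 overlapped DMSO replicate 2. The log2 fold change was 0.30 ± 0.098 with paracetamol (adjusted p = 0.0409) and -0.44 ± 0.098 with hydrochlorothiazide (adjusted p = 0.0117). The paracetamol call was lost without DMSO replicate 2 or 3 or paracetamol replicate 1 or 3, and the hydrochlorothiazide call without DMSO replicate 1 or 3 or hydrochlorothiazide replicate 1 or 2. Ccnd2, Ccnd3 and Ccne1 were called with no compound. Their fold changes over the 19 compounds ran from -0.17 (dexamethazone) to 0.11 (penicillamine) for Ccnd2, from -0.05 (methotrexate) to 0.11 (sulfasalazine) for Ccnd3 and from -0.05 (ondansetron) to 0.07 (VPA) for Ccne1. With VPA, the interval of the change was -0.23 to 0.00 for Ccnd2 and -0.01 to 0.15 for Ccne1 (95% confidence).

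The E2F activators E2f1 and E2f2, which switch on genes for S phase, went opposite ways with paracetamol. E2f1 had 10.33, 10.27 and 10.24 on the paracetamol arrays, against 10.08, 9.97 and 10.09 on the DMSO arrays. E2f2 had 8.16, 8.17 and 8.02 with paracetamol and 8.06, 8.17 and 8.12 with loratadine, against 8.38, 8.36 and 8.28 in DMSO. The groups did not overlap in any of these 3 comparisons. E2f1 rose by 0.23 ± 0.077 (adjusted p = 0.0447), a call that was lost when any of the 6 arrays was left out. E2f2 fell by 0.22 ± 0.060 with paracetamol (adjusted p = 0.0104) and by 0.23 ± 0.060 with loratadine (adjusted p = 0.00499). The paracetamol call of E2f2 was lost without DMSO replicate 1 or paracetamol replicate 3, and the loratadine call was kept without any single array. With VPA the changes of E2f1 (0.14 ± 0.077, adjusted p = 0.217) and E2f2 (0.11 ± 0.060, adjusted p = 0.219) did not pass.

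**Figure D4:**
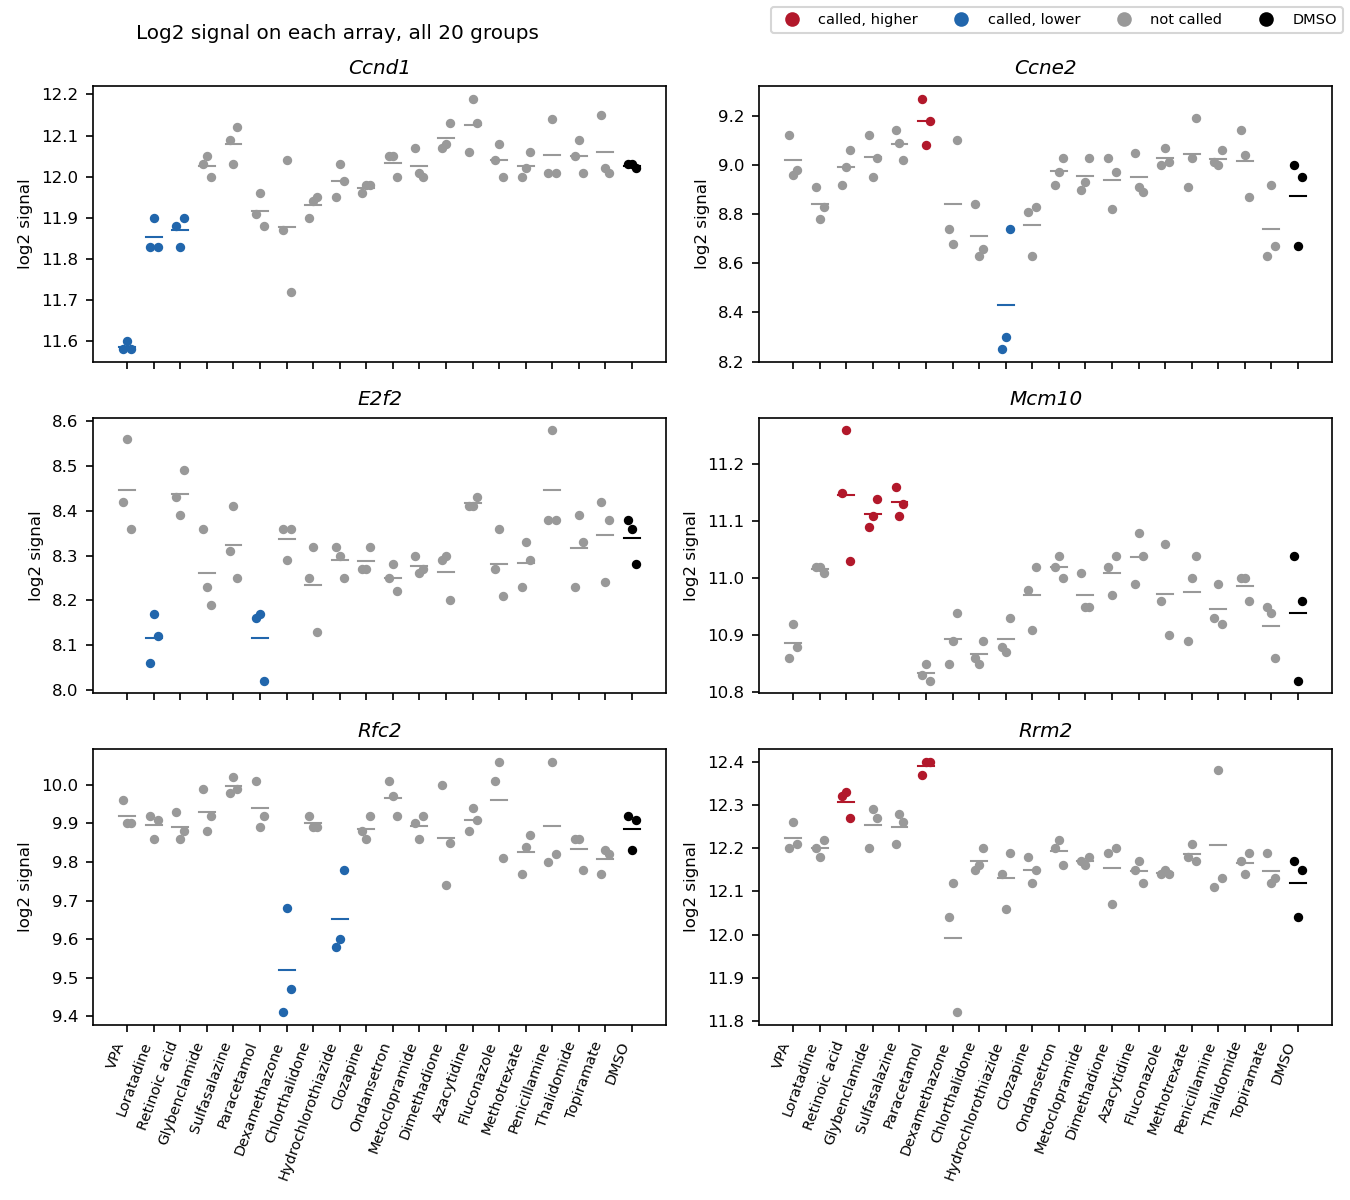
Log2 signal of 6 members on each of the 60 arrays, with the compounds ordered by the number of probe sets called and DMSO at the right. Points are arrays, lines are group means, and colours mark groups called higher (red) or lower (blue) than DMSO (black). The Ccnd1 points with VPA, at 11.58 to 11.60, lie below those of every other group, and Mcm10 is called higher with retinoic acid, glybenclamide and sulfasalazine.

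Among the licensing genes, Cdt1 encodes the loading factor that is destroyed in S phase. It had 11.68, 11.69 and 11.64 on the VPA arrays and 11.76, 12.04 and 11.31 on the dexamethazone arrays, against 11.93, 12.05 and 12.00 on the DMSO arrays. The VPA arrays were tight and lay below DMSO. The dexamethazone arrays spread widely (SD 0.369, n = 3), with replicate 2 inside the DMSO range. The fold change was -0.32 ± 0.080 with VPA (adjusted p = 0.0012) and -0.29 ± 0.080 with dexamethazone (adjusted p = 0.022), and the second call was lost without dexamethazone replicate 3 or without DMSO replicate 2 or 3. The change was -0.095 without dexamethazone replicate 3 (adjusted p = 0.401) and -0.46 without dexamethazone replicate 2. Replicate 3 has the letter b in its title, which no DMSO or VPA array has. With that letter as a covariate the dexamethazone call of Cdt1 was kept (-0.23, adjusted p = 0.0381). It was lost when only the 6 arrays entered the model (adjusted p = 0.693). Cdc6, the partner of Cdt1 in loading, had 9.02, 8.95 and 8.90 on the dexamethazone arrays, against 9.13, 9.19 and 9.13 on the DMSO arrays. It fell by 0.19 ± 0.055 (adjusted p = 0.028) with no overlap, and this call was lost without dexamethazone replicate 3 or any single DMSO array. It was also lost after quantile normalisation (-0.12, adjusted p = 0.307) and when only the 6 arrays entered the model (adjusted p = 0.687). With VPA Cdc6 changed by 0.11 ± 0.055 (adjusted p = 0.157).

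The MCM genes encode the subunits of the helicase. Mcm3 had 11.32, 11.43 and 11.37 on the VPA arrays, against 11.58, 11.55 and 11.57 on the DMSO arrays. Mcm2 had 12.05, 12.06 and 12.09 with VPA, against 12.26, 12.27 and 12.21 in DMSO. In both genes every VPA array was lower than every DMSO array. The log2 fold change with VPA was -0.19 ± 0.051 for Mcm3 (adjusted p = 0.00261) and -0.17 ± 0.044 for Mcm2 (adjusted p = 0.00162). Mcm7 had 12.57 to 12.66 with VPA against 12.74 to 12.81 in DMSO, and Mcm5 had 12.52 to 12.53 with VPA against 12.62 to 12.68. They fell by 0.15 ± 0.042 (adjusted p = 0.00477) and by 0.13 ± 0.043 (adjusted p = 0.0234). The Mcm7 call was lost without VPA replicate 1, that of Mcm5 without any single array except DMSO replicate 3, and both after quantile normalisation. Mcm4 (0.01 ± 0.067, adjusted p = 0.962) and Mcm6 (-0.07 ± 0.054, adjusted p = 0.443) were not called with VPA or with any other compound. Their intervals with VPA, -0.13 to 0.14 and -0.17 to 0.04, hold a change as large as that of Mcm5, and differences between the subunits were not tested.

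Orc6 and Orc1 encode subunits of the origin recognition complex. Orc6 had 10.84, 10.89 and 10.86 with VPA, against 10.60, 10.58 and 10.69 in DMSO, a rise of 0.24 ± 0.071 (adjusted p = 0.00749) without overlap. Orc1 was called with no compound, and its changes ran from -0.17 (hydrochlorothiazide, adjusted p = 0.114) to 0.16 (loratadine, adjusted p = 0.0762).

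Among the helicase activation genes, Gins3 rose most with VPA. It had 9.77, 9.86 and 9.80 on the VPA arrays, against 9.44, 9.40 and 9.46 on the DMSO arrays, well apart. The change was 0.38 ± 0.066 (adjusted p = 8.79e-06), or 30% higher. Gins4 had 11.79 to 11.84 with VPA against 11.49 to 11.63 in DMSO and rose by 0.25 ± 0.059 (adjusted p = 0.000734). Of the other GINS subunits, Gins1 (-0.13 ± 0.109, adjusted p = 0.453) and Gins2 (0.03 ± 0.068, adjusted p = 0.836) were not called with VPA or any other compound, and the interval of Gins1 with VPA reached from -0.35 to 0.09. The interval of Gins1 did not overlap that of Gins3 (0.25 to 0.51), and neither did that of Gins2 (-0.11 to 0.17). Gins3 was picked here as the largest rise, and differences between the GINS subunits were not tested.

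Cdc45, which joins the MCM ring and GINS in the active helicase, had 9.87, 9.96 and 9.93 with paracetamol and 9.87, 9.90 and 9.87 with VPA, against 9.73, 9.71 and 9.70 in DMSO. It rose by 0.20 ± 0.064 with paracetamol (adjusted p = 0.0328) and by 0.17 ± 0.064 with VPA (adjusted p = 0.0449). Although the arrays did not overlap, the VPA call was lost without any single array and the paracetamol call without any except paracetamol replicate 1. Mcm10, a factor that helps to fire the helicase, rose with 3 compounds that did not include VPA (-0.06 ± 0.050, adjusted p = 0.489). It had 11.15, 11.26 and 11.03 with retinoic acid, 11.09, 11.11 and 11.14 with glybenclamide and 11.16, 11.11 and 11.13 with sulfasalazine, against 11.04, 10.82 and 10.96 in DMSO. Retinoic acid replicate 2 was the highest array and replicate 3 overlapped DMSO replicate 1, whereas glybenclamide and sulfasalazine lay above DMSO. The changes were 0.20 ± 0.050 (adjusted p = 0.00346), 0.17 ± 0.050 (adjusted p = 0.0199) and 0.19 ± 0.050 (adjusted p = 0.0135) in that order of compounds. Each of these 3 calls was lost without DMSO replicate 2, the lowest DMSO array for this gene, and also without 1 array of the compound (retinoic acid replicate 2, glybenclamide replicate 3 or sulfasalazine replicate 1).

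Among the clamp and clamp loader genes, Rfc4 rose with VPA and sulfasalazine. It had 12.45, 12.46 and 12.51 with VPA and 12.36, 12.27 and 12.30 with sulfasalazine, against 12.22, 12.01 and 12.12 in DMSO. Both groups lay above DMSO, with DMSO replicate 2 again the lowest. The change was 0.36 ± 0.058 with VPA (adjusted p = 2.31e-06) and 0.20 ± 0.058 with sulfasalazine (adjusted p = 0.0248), and the second was lost without DMSO replicate 2 or any sulfasalazine array. Rfc3 had 10.80 to 10.86 with VPA against 10.47 to 10.66 in DMSO and rose by 0.27 ± 0.077 (adjusted p = 0.00468). Rfc2, another subunit of the loader, had 9.41, 9.68 and 9.47 with dexamethazone and 9.58, 9.60 and 9.78 with hydrochlorothiazide, against 9.92, 9.83 and 9.91 in DMSO. Every array of both compounds was lower than every DMSO array. Rfc2 fell by 0.37 ± 0.063 with dexamethazone (adjusted p = 0.00031), which was kept without any single array, and by 0.24 ± 0.063 with hydrochlorothiazide (adjusted p = 0.0335), which was lost without DMSO replicate 1 or 3 or hydrochlorothiazide replicate 1 or 2. In a model of the 6 arrays alone the dexamethazone call of Rfc2 was also lost (adjusted p = 0.687).

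Pcna, the clamp itself, was called with no compound. Its changes ran from -0.07 (hydrochlorothiazide) to 0.08 (paracetamol), and its second probe set gave -0.03 with VPA (adjusted p = 0.704) where the brighter gave -0.04 (adjusted p = 0.621). The RefSeq annotation also lists Pcna pseudogenes, which could share its probes, so Pcna is uncertain. Rfc1 and Rfc5 were called with none either, with changes from -0.02 (topiramate) to 0.17 (sulfasalazine, adjusted p = 0.0748) and from -0.08 (dexamethazone) to 0.11 (paracetamol). Pcna and Rfc5 did not pass the F test (adjusted p = 0.0608 and 0.446).

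Primase and DNA polymerase alpha make the primers of both strands. Prim2, the larger primase subunit, had 10.98, 10.88 and 10.94 with VPA, 10.81, 10.72 and 10.74 with loratadine and 10.65, 10.76 and 10.76 with glybenclamide, against 10.57, 10.44 and 10.59 in DMSO. All 9 compound arrays lay above all DMSO arrays. The changes were 0.40 ± 0.062 with VPA (adjusted p = 1.05e-06), 0.22 ± 0.062 with loratadine (adjusted p = 0.00727) and 0.19 ± 0.062 with glybenclamide (adjusted p = 0.0416). The loratadine call was lost without DMSO replicate 2 and when each array's interquartile range was a covariate (0.18, adjusted p = 0.0502), and the glybenclamide call without DMSO replicate 1 or 2 or glybenclamide replicate 2 or 3. Prim1, the catalytic subunit, had 10.61, 10.55 and 10.55 with VPA, against 10.22, 10.21 and 10.24 in DMSO. It rose by 0.35 ± 0.068 (adjusted p = 6.92e-05).

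Pola2, the regulatory subunit of polymerase alpha, rose with 3 compounds. It had 11.15, 11.16 and 11.16 with VPA, 11.11, 11.11 and 11.07 with paracetamol and 11.15, 11.05 and 11.12 with glybenclamide, against 10.95, 10.77 and 10.95 in DMSO. The 9 compound arrays were higher than the DMSO arrays, of which replicate 2 was the lowest. The changes were 0.27 ± 0.056 (adjusted p = 0.000164), 0.21 ± 0.056 (adjusted p = 0.00904) and 0.22 ± 0.056 (adjusted p = 0.00636) in that order. Without DMSO replicate 2 the paracetamol and glybenclamide calls were lost, and the glybenclamide call was also lost without its own replicate 1. Pola1, the catalytic subunit, was called with no compound, and its change with VPA was -0.02 ± 0.074 (adjusted p = 0.928), with an interval of -0.16 to 0.13 that does not overlap that of Pola2 (0.15 to 0.38). A difference between Pola1 and Pola2 was not tested. The lowest change of Pola1 was with topiramate (-0.22 ± 0.074, adjusted p = 0.268).

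**Figure D5:**
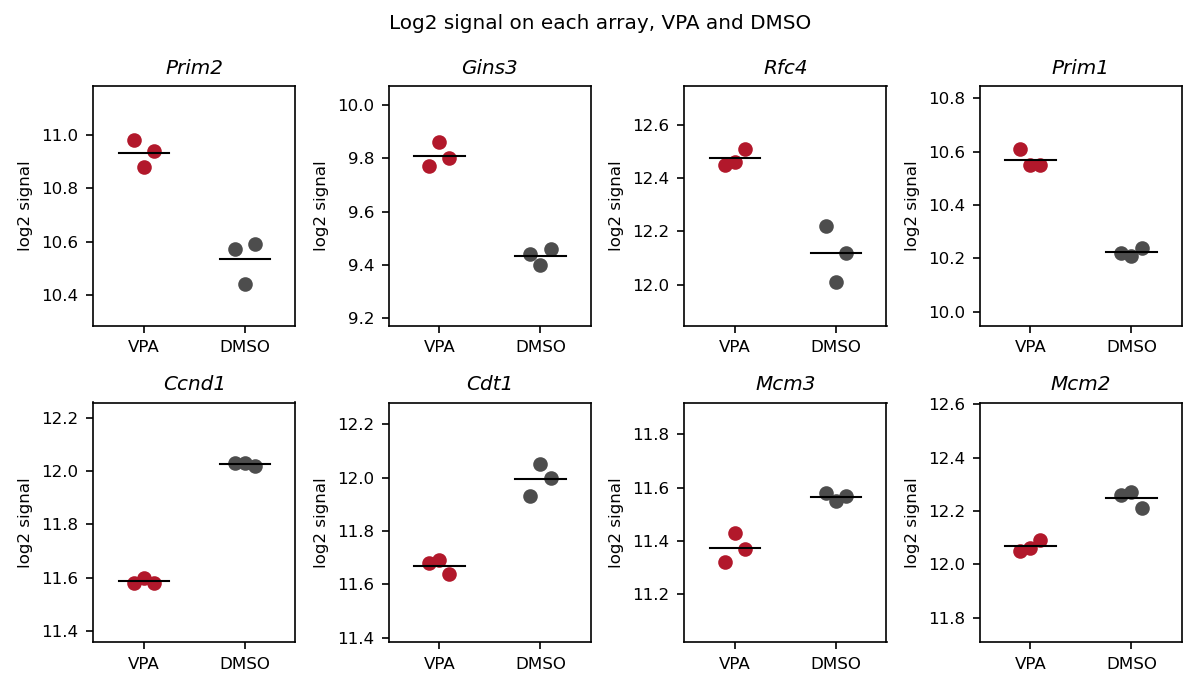
Log2 signal on the 3 VPA arrays (red, left) and the 3 DMSO arrays (grey, right) of 8 members, the 4 with the largest rises (top row) and the 4 with the largest falls (bottom row) with VPA. Points are arrays, lines are group means, and each panel has its own axis of the same length that does not start at 0. In all 8 panels the groups do not overlap, which the choice of genes by their change made likely.

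Fen1, which trims the flaps of lagging strand fragments, and Lig1, which joins them, were called with no compound. Fen1 ran from -0.18 (loratadine, adjusted p = 0.0738) to 0.10 (dimethadione), and Lig1 from -0.11 (hydrochlorothiazide) to 0.10 (dexamethazone). With VPA their changes were -0.04 ± 0.072 and 0.00 ± 0.050.

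The last members supply nucleotides and histones. Rrm2, the small subunit of ribonucleotide reductase, had 12.37, 12.40 and 12.40 with paracetamol and 12.32, 12.33 and 12.27 with retinoic acid, against 12.17, 12.04 and 12.15 in DMSO. Both groups lay above DMSO. The changes were 0.27 ± 0.054 with paracetamol (adjusted p = 0.000399) and 0.19 ± 0.054 with retinoic acid (adjusted p = 0.0151). The paracetamol call was kept without any single array, and the retinoic acid call was lost without DMSO replicate 2 or retinoic acid replicate 1 or 2. The large subunit gene Rrm1 was called with no compound, with changes from -0.07 (topiramate) to 0.11 (glybenclamide). Slbp, whose product binds histone mRNA, had 10.86, 10.87 and 10.85 with retinoic acid, against 10.74, 10.56 and 10.60 in DMSO, a rise of 0.23 ± 0.074 (adjusted p = 0.037). This call was lost without any single array except DMSO replicate 1, and the gene's second probe set changed by 0.17 ± 0.069 (adjusted p = 0.109).

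With paracetamol, an analgesic, Ccne2, Rrm2, E2f1, Pola2 and Cdc45 were called higher and E2f2 lower. Of these calls only that of Rrm2 was kept in every alternative run. Of the 10 licensing genes 0 were called, with a median log2 fold change of -0.06. Of the other G1/S control genes, 1 of 30 rose, Rb1 (0.37 ± 0.073), and 2 fell, Cdk6 (-0.38 ± 0.054) and the kinase inhibitor gene Cdkn1b (-0.17 ± 0.048). Of the other replication genes 3 of 53 rose and 4 fell, led by Dbf4 (-0.26 ± 0.068), Asf1a (-0.26 ± 0.070), Chaf1b (0.24 ± 0.047), Asf1b (0.23 ± 0.052) and Orc5 (-0.21 ± 0.064). Dbf4 activates the kinase that fires origins. The shares of these lists called with paracetamol were 10% and 13.2%, where 8.76% of all probe sets were called. With paracetamol 6 of 10 embryonic stem cell markers fell and none rose, with a list mean of 11.89 to 11.91 on paracetamol arrays against 12.06 to 12.11 on DMSO arrays, and the part of this shift in the members' changes was not tested. The number of members called was 2 without paracetamol replicate 3, both of them up, where 1522 of all probe sets were called. It was 4 without DMSO replicate 2, where 1 was up and 3 were down, so the members no longer rose more often than they fell. In that run 1554 of all probe sets were called, of which 695 were up.

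With retinoic acid, a morphogen acting through nuclear receptors, 1 of 30 other G1/S control genes rose (Rbl1, 0.22 ± 0.074) and 1 fell (Mycn, -0.34 ± 0.047). The share of that list called was 6.67%. Of 53 other replication genes 5 rose and none fell, a share of 9.43% that is close to the 9.82% of all probe sets called. They were Ticrr (0.49 ± 0.058), which helps to load Cdc45, Rpa1 (0.37 ± 0.049), which coats single-stranded DNA, the topoisomerase gene Top2a (0.21 ± 0.059) and the checkpoint genes Clspn (0.21 ± 0.069) and Chek1 (0.19 ± 0.062). Without DMSO replicate 2 or retinoic acid replicate 2 the number of members called with retinoic acid was 0. Of all probe sets 1313 and 1360 were called in these runs, in that order.

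Dexamethazone is a glucocorticoid. In the other lists Ccna2 rose (0.17 ± 0.045) and Ccnh fell (-0.24 ± 0.075) among 30 G1/S control genes, and 6 of 53 replication genes fell and none rose, led by Pole2 (-0.39 ± 0.086), Pold2 (-0.28 ± 0.061), Timeless (-0.26 ± 0.063), Mcm8 (-0.25 ± 0.080) and Chtf8 (-0.19 ± 0.059). Pole2 and Pold2 encode subunits of the main replicative polymerases. The shares of these lists called with dexamethazone were 6.67% and 11.3%, where 6.25% of all probe sets were called. The number of members called was 8 without dexamethazone replicate 2 and 1 without DMSO replicate 2 or 3. Of all probe sets 2955, 1388 and 165 were called in these runs, in that order. The interquartile range of the log2 signals was 2.83, 2.79 and 2.76 on the dexamethazone arrays and 2.65, 2.70 and 2.90 on the hydrochlorothiazide arrays, against 2.92, 2.82 and 3.02 on the DMSO arrays. With that range as a covariate Rfc2 and Cdc6 were still called with dexamethazone, Cdt1 was not (-0.27, adjusted p = 0.0729), and both hydrochlorothiazide calls were lost (Ccne2 -0.24, adjusted p = 0.519, and Rfc2 -0.14, adjusted p = 0.65).

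Loratadine, an antihistamine, and glybenclamide, a sulfonylurea, each called 3 members, as dexamethazone did. With loratadine 3 of 30 other G1/S control genes rose and 4 fell, led by Myc (-0.45 ± 0.062), the repressor E2f8 (-0.33 ± 0.056), Cdkn1b (0.32 ± 0.048), Ccna1 (0.26 ± 0.061) and Mycn (-0.24 ± 0.047), and 6 of 53 other replication genes rose and 7 fell. Mcm8 rose by 0.32 ± 0.080 and Ticrr fell by 0.29 ± 0.058, Top1 by 0.23 ± 0.081, the thymidylate synthase gene Tyms by 0.21 ± 0.055 and Pole4 by 0.20 ± 0.050. The shares of these lists called with loratadine, 23.3% and 24.5%, were not far from the 19.2% of all probe sets. With glybenclamide Mybl2 rose (0.17 ± 0.041) and Cdkn2d fell (-0.18 ± 0.062) among the G1/S control genes, and 5 of 53 other replication genes rose and 1 fell. They were led by Mcm8 (0.40 ± 0.080), Pold4 (0.32 ± 0.067), Top1 (-0.27 ± 0.081), Chaf1b (0.20 ± 0.047) and Pole (0.19 ± 0.050). The shares of these lists called with glybenclamide were 6.67% and 11.3%, where 9.54% of all probe sets were called. The members' counts were 2 with loratadine and 0 with glybenclamide when DMSO replicate 2 was left out, and 0 with sulfasalazine, an anti-inflammatory drug, for which it was also 0 without sulfasalazine replicate 1. Without DMSO replicate 2, 2723 of all probe sets were called with loratadine and 1126 with glybenclamide. With loratadine 4 of 9 fibroblast markers were called, of which Postn rose and Col3a1, Pdgfrb and Dcn fell, with a list mean of 7.66 to 7.75 on loratadine arrays against 7.69 to 7.77 on DMSO arrays. The embryonic stem cell markers Esrrb and Klf4 rose, 2 of 10, with a list mean of 12.14 to 12.16 on loratadine arrays against 12.06 to 12.11 on DMSO arrays. The part of these markers in the members' changes was not tested. With glybenclamide and sulfasalazine the counts were also 0 with the interquartile range as a covariate.

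For 11 compounds limma called 0 members. Chlorthalidone called 2.58% of all probe sets, clozapine 1.31%, ondansetron 0.33%, metoclopramide 0.197% and dimethadione 0.119%, and penicillamine, thalidomide, azacytidine, fluconazole, topiramate and methotrexate 0%. At an unadjusted p under 0.05 there were 4 members with topiramate, 3 with ondansetron, 2 each with penicillamine and methotrexate, 1 each with chlorthalidone, thalidomide, clozapine and dimethadione, and 0 with azacytidine, metoclopramide and fluconazole. In the same comparisons between 6.59% (methotrexate) and 14.5% (ondansetron) of all probe sets passed that level. Over the members, the 95% intervals reached no further than -0.42 (chlorthalidone) and 0.36 (methotrexate).

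Azacytidine, a cytidine analogue that is built into nucleic acids, and methotrexate, which blocks the supply of folate needed for thymidylate, act on DNA synthesis itself. No member was called with either of them against DMSO. With azacytidine the members' changes ran from -0.14 (Gins1) to 0.12 (E2f1), and with methotrexate from -0.07 (Rfc2) to 0.17 (Ccne2). In the contrast of azacytidine with methotrexate 0 of 38 members and 0.643% of probe sets were called. At an unadjusted p under 0.05 there were 8 members and 2812 of all 21789 probe sets. The largest difference below 0 was that of Orc6 (10.50 with azacytidine and 10.72 with methotrexate, -0.21 ± 0.071, adjusted p = 0.146), and those furthest above 0 included Cdt1 (12.09 and 11.95 in the same order, 0.13 ± 0.080, adjusted p = 0.486). The intervals reached from -0.42 to 0.29 at 95% confidence. The azacytidine dose is uncertain, as given above.

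VPA was also set directly against the teratogen retinoic acid and the non-teratogen loratadine. Against retinoic acid 14 members were called (36.8%), 6 higher and 8 lower with VPA. This share is close to the 33.1% of all probe sets called. Shares of all probe sets by direction were not counted for direct contrasts. Lower were Cdt1 (11.67 with VPA and 12.04 with retinoic acid, -0.37 ± 0.080, adjusted p = 0.000205), Ccnd1, Ccnd2, Mcm2, Mcm3, Mcm5, Mcm7 and Mcm10. Higher were Rfc4 (12.47 with VPA and 12.12 with retinoic acid, 0.35 ± 0.058, adjusted p = 2.54e-06), Gins3, Gins4, Pola2, Prim1 and Prim2. The MCM differences lay between -0.27 (Mcm3) and -0.18 (Mcm5). Against loratadine 15 members were called (39.5%), 11 higher and 4 lower, where 29.4% of all probe sets were called. Lower were Ccnd1, Cdt1, Mcm7 and Mcm10, and the largest of the higher ones were Rfc3 (10.83 with VPA and 10.42 with loratadine, 0.41 ± 0.077), E2f2 (8.45 and 8.11 in the same order, 0.33 ± 0.060) and Gins3 (9.81 and 9.50, 0.31 ± 0.066). Both contrasts hold the same VPA arrays.

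Chlorthalidone and hydrochlorothiazide, both sulfonamide diuretics, were given at the same dose and were compared directly. Of the members 5 were called (13.2%), all higher with chlorthalidone, where 5.33% of all probe sets were called in either direction. They were Prim1 (10.29 with chlorthalidone and 10.01 with hydrochlorothiazide, 0.28 ± 0.068, adjusted p = 0.0083), Orc6 (10.66 and 10.39 in the same order), E2f1 (10.18 and 9.92), Rfc2 (9.90 and 9.65) and Orc1 (10.57 and 10.34). The count was 0 without hydrochlorothiazide replicate 1 or replicate 2, whose interquartile ranges were low (2.65 and 2.70). Of all probe sets 302 and 434 were called in these runs, in that order. The members' count was 8 without hydrochlorothiazide replicate 3, where 2898 of all probe sets were called. It was 2 or 3 when a chlorthalidone array was left out, where 555 to 806 of all probe sets were called. The interquartile range was not tried as a covariate in this contrast. For the members the intervals of the difference reached from -0.22 to 0.48.

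Teratogens and non-teratogens were compared on compound means, 10 against 9. None of the 38 members and 0% of all probe sets passed, with a smallest adjusted p of 0.976 among the members (limma on compound means). At an unadjusted p under 0.05 there were 1 member and 4.38% of all probe sets. That member was E2f2, with 8.36 ± 0.073 in teratogens and 8.24 ± 0.074 in non-teratogens (SD over 10 and 9 compounds). Next came Slbp, with 10.70 ± 0.112 in teratogens and 10.61 ± 0.110 in non-teratogens, and Cdt1, with 11.92 ± 0.135 and 12.00 ± 0.043 in the same order. The class differences of the members ran from -0.08 to 0.12, and no interval reached beyond -0.17 or 0.22.

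By the F test over the 19 compounds the members that varied most after Ccnd1 were Gins3 (adjusted p = 2.58e-07), Prim1 (3.73e-07), Mcm10 (1.91e-06), Prim2 (2.1e-06), Rfc2 (2.16e-06), Ccne2 (2.73e-06) and Rfc4 (3.05e-06). The means of the 20 groups spanned 0.75 log2 units for Ccne2, 0.57 for Prim1 and 0.54 for Ccnd1 and Gins3, and at the other end 0.12 for Ccne1. The median span was 0.32. The 8 members that did not pass were Pcna, Fen1, Gins2, Rrm1, Ccne1, Mcm6, Mcm4 and Rfc5. Some members passed the F test without a call against DMSO, namely Orc1, Ccnd2, Pola1, Gins1, Ccnd3, Rfc1 and Lig1.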

How the data were processed

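RNA of R1 cells had been hybridised to 60 Affymetrix mouse gene arrays. The authors deposited a log2 signal for each probe set on each array, made with RMA, per the submitters' processing notes, which give no version or genome build. Log2 levels and log2 fold changes were computed from these deposited values without further normalisation. Of 35556 probe sets, 21789 with a single gene symbol were tested, 1621 with several symbols and 12146 without a symbol here were not. Array data have no read depth, and the 3 arrays per group limit the precision. A model with a mean per group was fitted to all arrays (limma 3.58.1, R 4.3.3, lmFit and eBayes, 40 residual and 7.31 prior degrees of freedom), with contrasts to DMSO and between compounds, two-sided p-values and Benjamini-Hochberg adjustment within a contrast. Classes were compared on 19 compound means. Errors are SE of the model unless SD is named. Replicate numbers follow accession order and pair nothing. The steps were tested on simulated data.

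The members, lists, markers, promoter words and the rule for named genes were chosen with earlier results of these data known. By that rule per-array values are given for called pairs with the largest change (4 each way for the 4 compounds with most member calls, a place that dexamethazone, glybenclamide and loratadine share with 3 calls each, and 2 each way for others), D and E cyclins, E2f1, E2f2, Cdc6, Mcm10, Pcna and Rrm2 are described in any case, and up to 5 called genes of each list are named for those compounds. Alternatives were quantile normalisation, the letter b of some sample titles or the interquartile range as a covariate, the 6 arrays of a comparison alone, trend and robust eBayes, a filter on dim probe sets, other probe sets, each array left out and, chosen after seeing the data, the mean of the other 18 compounds in place of DMSO. The letter b stood in 8 titles, and the labels do not give its meaning. These were thalidomide replicates 1 and 3, fluconazole replicates 1 and 3 and azacytidine replicate 1. The others were retinoic acid replicate 2, dexamethazone replicate 3 and loratadine replicate 1. Some genes on the lists are not analysed here.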

Additional observations from a re-analysis of the deposited data

How the results depend on the processing

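No log2 fold change of a called pair changed sign under any alternative run. Of the 38 called pairs, all 38 were kept with dim probe sets left out and with trend and robust eBayes, 36 with the letter b as a covariate, 33 after quantile normalisation, 28 with the interquartile range as a covariate and 19 in models of the 6 arrays alone, which have fewer samples. Against the mean of the other 18 compounds, chosen after seeing the data, 37 were kept. When arrays were left out in turn, 16 were kept every time. The cause of the other changes was not tested.

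The number of members called moved by more than 1.5 times in these cases. With dim probe sets left out, which tests fewer probe sets, it was 5 with dexamethazone, 4 with hydrochlorothiazide and 8 with loratadine. In the same run 1597, 775 and 3542 of the probe sets tested were called, in that order. With the interquartile range as a covariate the members' count was 0 with glybenclamide, hydrochlorothiazide and sulfasalazine. Of all probe sets 1613 were then called with glybenclamide and 2 with hydrochlorothiazide. With the letter b as a covariate the members' count was 5 with loratadine and 2 with retinoic acid, where 4417 and 2065 of all probe sets were called. After quantile normalisation the members' count was 7 with loratadine, 1 with hydrochlorothiazide and 3 in the contrast of chlorthalidone with hydrochlorothiazide. Of all probe sets 4447, 495 and 1216 were called, in that order. In models of the 6 arrays the members' count was 2 with paracetamol and 0 with dexamethazone, glybenclamide, hydrochlorothiazide, retinoic acid and sulfasalazine. Of all probe sets 1306 were then called with paracetamol, 1 with dexamethazone, 1210 with glybenclamide, 0 with hydrochlorothiazide and 876 with retinoic acid. The F test called 31 members after quantile normalisation and 30 before, and the class comparison called 0 in every alternative run.

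With an array left out, the count ranged over 12 to 14 with VPA, 2 to 4 with paracetamol, 0 to 4 with retinoic acid, 1 to 8 with dexamethazone, 0 to 3 with glybenclamide, 2 to 5 with loratadine, 0 to 8 with hydrochlorothiazide and 0 to 3 with sulfasalazine, and was 0 throughout for the other 11 compounds. Calls over all probe sets ranged over 4923 to 5197 with VPA, 1166 to 1554 with paracetamol and 1313 to 2591 with retinoic acid. They ranged over 165 to 2955 with dexamethazone, 1126 to 2090 with glybenclamide and 2723 to 4354 with loratadine. With hydrochlorothiazide they ranged over 0 to 3428 and with sulfasalazine over 391 to 2994. The members' count ranged over 11 to 17 for VPA minus retinoic acid, 10 to 13 for VPA minus loratadine and 0 to 8 for chlorthalidone minus hydrochlorothiazide, and was 0 throughout for azacytidine minus methotrexate. Calls over all probe sets ranged over 6046 to 7104, 5098 to 5531, 302 to 2898 and 6 to 91 in these contrasts, in that order. The lowest count came without DMSO replicate 2 with glybenclamide and loratadine, without DMSO replicate 2 or 3 with dexamethazone, without DMSO replicate 2 or retinoic acid replicate 2 with retinoic acid, and without DMSO replicate 2 or sulfasalazine replicate 1 with sulfasalazine. No paired analysis was possible because the labels give no replicate numbers that link arrays across groups.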
